A study of Mus musculus with 8 samples.

Results

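Heat shock proteins and chaperones were followed through the epididymal fat of 4 mouse lines. The members were the probe sets on both chips whose annotated gene symbol begins with Hsp, Dnaj, Cct2 to Cct8 or Pdia, or is Tcp1, Cryab, Calr or Canx. Hspa4l and Dnajb3 were left out by the same rule, and 1 probe set annotated to both Dnajc19 and its pseudogene was left out because it names no single gene. That gave 69 probe sets of 13069 compared, 49 on chip A and 20 on chip B, for 49 genes of 6137 named. The members were 16 DnaJ (Hsp40) genes, 9 Hsp70 genes, 9 genes of the cytosolic chaperonin, 6 endoplasmic reticulum (ER) lectins and disulphide isomerases, 4 small heat shock proteins, 2 mitochondrial chaperonin genes and 1 Hsp90 gene. The other 2 symbols fit the name pattern only in part. Hspg2 encodes perlecan, a basement membrane proteoglycan and no chaperone, and Hspbp1 encodes a co-factor that binds Hsp70.

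The samples were DU6, a line bred over generations for large body size, DU6i, its inbred offshoot, DUKs, an unselected control line, and DBA, an inbred strain. Those line histories are background knowledge, since the labels give only the names. All mice were males aged 42 days, with no treatment in the labels, and RNA of 20 animals was pooled per line. Each line therefore had 1 pool, measured on 1 chip A array and 1 chip B array, and no value below has a replicate.

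Chaperones bind unfolded or partly folded proteins and keep them from aggregating. Hsp70 proteins work with J-domain partners of the DnaJ family, Hsp90 finishes many kinases and receptors, and the chaperonins fold proteins such as actin and tubulin inside a closed chamber. Heat shock factors raise many cytosolic members through repeated heat shock units in promoters, and the unfolded protein response raises ER members through the ER stress element. Fat cells secrete large amounts of protein, and ER chaperones serve that secretory load.

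Signals are scaled intensities on a linear scale, and a floor was set on each chip from the sizes of its negative signals, at 1022.8 on chip A and 2258.25 on chip B. Between 12.79% and 30.49% of the signals on an array were below 0. Above the floor were 3045 to 3334 probe sets per chip A array and 1639 to 1823 per chip B array. The number of arrays, 1 per line and chip, limits the precision of every ratio. The control transcript pyruvate carboxylase was read at its better measured middle position on chip A. There it reached 15.29% of its 3′ signal in DU6 and 19.53% in DBA, against 54.48% in DU6i and 53.9% in DUKs. Each main pair, DU6 with DUKs and DU6i with DBA, therefore joined a line low in this control with a line high in it. On chip A actin and Gapdh did not split the lines in this way. The 5′ signal of actin there was 47.17%, 40.61%, 57.95% and 42.99% of its 3′ signal in DU6, DU6i, DUKs and DBA. On chip B the 5′ signal of actin was 36.35%, 58.07%, 60.22% and 52.68% in the same order, with DU6 and DBA again the lower lines. The middle of actin on chip B, at 42.91%, 62.81%, 49.92% and 57.1%, and Gapdh on chip B did not show this split. Arrays also differed at their bright end. The signal at the 99th percentile of chip A came to 18810 in DU6, 34793 in DU6i, 27552 in DUKs and 23450 in DBA, and on chip B to 49489, 34692, 52203 and 33621. The part of these differences in the ratios below was not tested. In bulk tissue, fewer cells of a type and less RNA per cell cannot be told apart.

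Of the 69 probe sets, 48 were above the floor in all 4 lines and 6 in none. The 6 were 2 probe sets of Dnajc1, 1 each of Dnajc11 and Dnajc21, and 1 each of Calr and Hspg2.

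Promoters are shown first because several of the members described below share a regulatory sequence in front of the start site. RefSeq windows (build GRCm38.p6, from 250 bases before the start to 50 after it) were found for 41 of the 49 genes, in 49 windows. No window was found for Cct4, Cryab, Dnajc11, Dnajc2, Hsp90aa1, Hspa8, Hspa9 or Hspb2. The ER stress element, searched as CCAAT, any 9 bases and CCACG, or on the other strand as CGTGG, any 9 bases and ATTGG, stood in 5 member windows (10.2%) and in 0.119% of all 32851 windows. Its 5 genes all encode ER proteins. Capitals mark the fixed letters of the element.
Hspa5 promoter, chr2:34772005-34772063 (+): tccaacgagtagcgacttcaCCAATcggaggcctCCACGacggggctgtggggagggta
Calr promoter, chr8:84847055-84847113 (-): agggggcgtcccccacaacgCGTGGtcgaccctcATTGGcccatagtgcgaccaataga
Canx promoter, chr11:50325780-50325838 (-): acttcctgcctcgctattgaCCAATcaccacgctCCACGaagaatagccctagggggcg
Pdia6 promoter, chr12:17266471-17266529 (+): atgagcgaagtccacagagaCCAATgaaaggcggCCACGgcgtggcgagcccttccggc
Dnajc3 promoter, chr14:118937807-118937865 (+): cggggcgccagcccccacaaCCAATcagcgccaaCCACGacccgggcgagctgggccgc

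Heat shock units were searched as GAANNTTC or TTCNNGAA, 2 units side by side. They stood in 14 member windows (28.6%) of 12 genes and in 15.1% of all windows. A run of 3 units, where GAA and TTC alternate with 2 bases of any kind between them, stood in 6 member windows (12.2%) of 4 genes, Dnajb6, Hspd1, Hspe1 and Hsph1, and in 0.603% of all windows. The longer run contains the shorter, so the counts overlap. Hspd1 and Hspe1 are neighbours that are read in opposite directions, and the stretch printed for Hspe1 also lies in an Hspd1 window. The windows of Dnajb6 overlap and hold the same run. Those of Hsph1 overlap too, and their shared run lies after the start site. The 6 windows therefore do not hold 6 separate runs. Capitals mark the fixed letters, and the genes shown are the mitochondrial pair, a DnaJ gene, the stress-inducible Hsp70 and the small heat shock protein Hspb1, which are described below.
Hspe1 promoter, chr1:55088039-55088096 (+): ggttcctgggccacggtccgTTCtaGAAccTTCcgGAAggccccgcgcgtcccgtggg
Dnajb6 promoter, chr5:29735832-29735884 (+): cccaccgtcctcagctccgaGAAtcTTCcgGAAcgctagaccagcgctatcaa
Hspa1a promoter, chr17:34972233-34972280 (-): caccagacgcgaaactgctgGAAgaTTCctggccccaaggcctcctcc
Hspb1 promoter, chr5:135887782-135887849 (+): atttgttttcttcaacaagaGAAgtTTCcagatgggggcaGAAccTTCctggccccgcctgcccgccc
A match describes the letters in the reference sequence. It is not a site shown to be bound in this tissue, and the windows are those of the reference and not of the 4 lines.

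The small heat shock proteins held the largest ratio of any member. Cryab, the crystallin alpha B chain that binds unfolding proteins in muscle, lens and fat, gave 4250 in DU6, 8815 in DU6i, 3376 in DUKs and 1226 in DBA as its chip A signals. On chip B a second Cryab probe set gave 10715, 12310 and 7161 in DU6, DU6i and DUKs, and 1552, under the floor, in DBA. On both chips DU6i was highest, followed by DU6 and DUKs, and DBA was lowest.

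In DU6i vs DBA the Cryab ratio was 7.19-fold on chip A (log2 2.85) and at least 5.45-fold on chip B, and DUKs also exceeded DBA, by 2.75-fold and at least 3.17-fold. For DU6 vs DUKs the log2 ratio was 0.33 on chip A and 0.58 on chip B, against an SD of a single log2 ratio of 0.442. That SD was taken from 387 genes with several probe sets and holds no spread between pools. Cryab thus differed by 2-fold or more on both chips in the pairs with DBA. On chip A alone DU6i also exceeded DU6, by 2.07-fold, and DUKs, by 2.61-fold, where chip B gave 0.20 and 0.78 in log2. Both Cryab probe sets carry the array suffix for probes shared within a gene family. Of the muscle list, 13 of 15 genes were on the chips and 6 (Mylpf, Tnnt3, Tnni2, Myh4, Pvalb and Atp2a1) were at or under the floor in every line. The summed muscle signal of 8 genes on chip A was 14453 in DU6, 15905 in DU6i, 13998 in DUKs and 11438 in DBA. That of 5 genes on chip B was 6632, 11045, 11702 and 9400 in the same order. In DU6i vs DBA, 1 of the 6 muscle genes that entered was higher at 2-fold, Myl1, a myosin light chain, where 4.79% of all probe sets were. The sum was lowest in DBA on chip A and in DU6 on chip B, and its part in the Cryab ratios was not tested.

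The other small heat shock proteins varied little. Hspb1, the ubiquitous Hsp27 that has the heat shock units printed above, gave 22740 in DU6, 26025 in DU6i, 19710 in DUKs and 19967 in DBA. Hspb8, which acts with Bag3 in clearing misfolded proteins, gave 6722, 8745, 7293 and 6540. In DU6i vs DBA their log2 ratios were 0.38 and 0.42. DU6i was the highest line for both, and the 4 lines of each stayed within 2-fold. Hspb2, a muscle small heat shock protein, was above the floor in DUKs alone, at 1044.

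**Figure D1:**
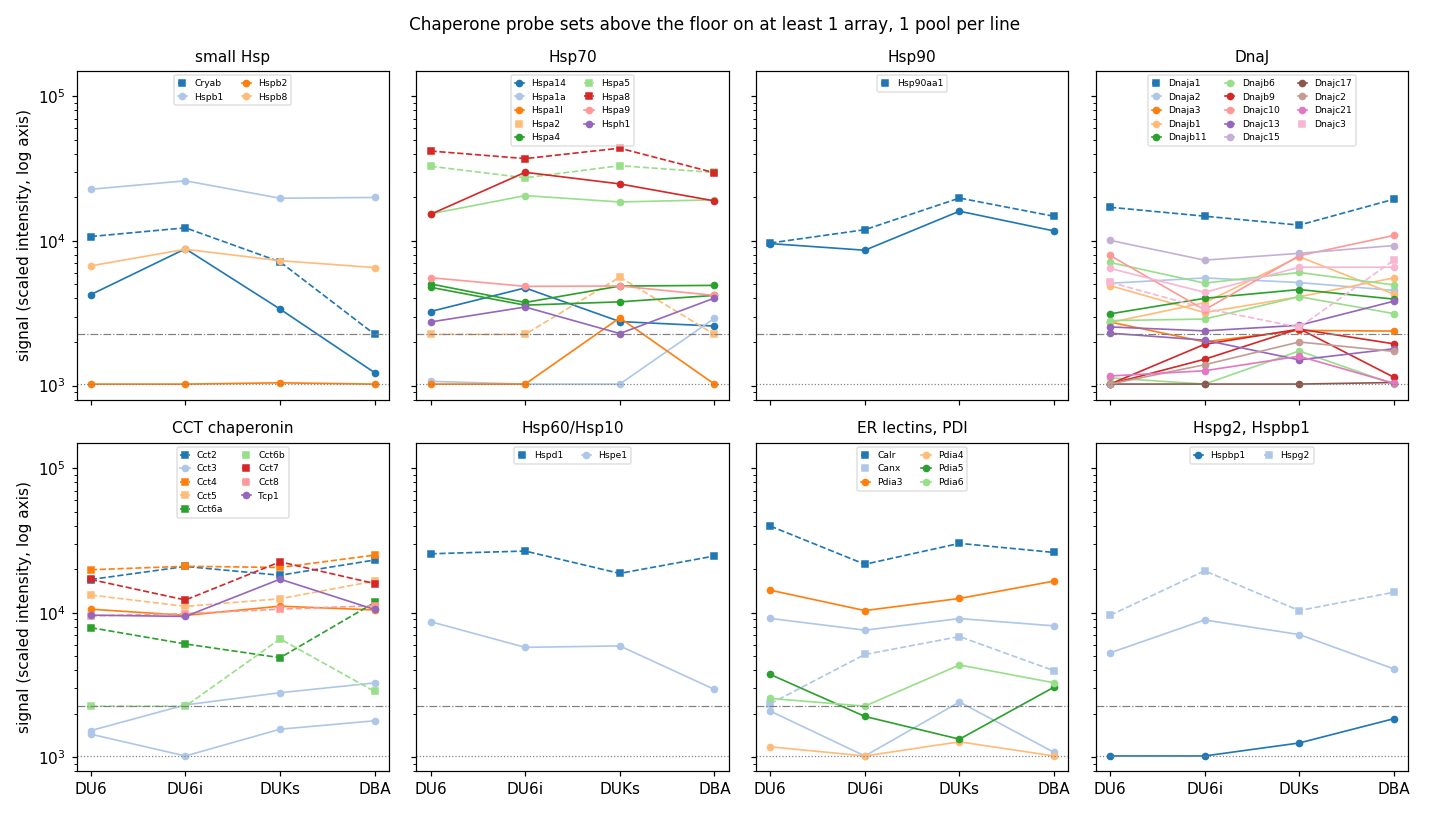
Signals (log axis, scaled intensity) of every chaperone probe set that clears the floor in 1 or more lines, one panel per class, with the 4 lines on the horizontal axis. Circles and solid lines are chip A, squares and dashed lines chip B, horizontal dotted and dash-dotted lines are the floors of chips A (1022.8) and B (2258.25), and signals under a floor are drawn at it. Of the 48 probe sets above the floor in all 4 lines, 12 (25%) span 2-fold or more, against 25.34% of all probe sets. Cryab falls to 1226 in DBA on chip A.

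Among the constitutive Hsp70 proteins no member reached 2-fold in the main pairs. Hspa5 (BiP), the ER Hsp70 whose promoter holds the ER stress element printed above, gave 15371 in DU6, 20556 in DU6i, 18583 in DUKs and 19221 in DBA on chip A. On chip B it gave 32815, 27296, 33099 and 29719. The chips ordered the lines differently, and the log2 ratios in DU6 vs DUKs were -0.27 and -0.01.

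Hspa8 (Hsc70), the cytosolic Hsp70 of unstressed cells, gave 15252, 29793, 24769 and 18894 in DU6, DU6i, DUKs and DBA with the chip A probe set. Chip B gave 41797, 37065, 43739 and 29580 in the same order. DU6 was lowest on chip A and second highest on chip B, so the place of DU6 was not settled. Both chips put DU6i above DBA, at log2 0.66 and 0.33, and DUKs above DBA. On chip A the order of the lines for Hspa8 was that of the 99th percentiles of the arrays, DU6i, DUKs, DBA and DU6 from the top, and on chip B DUKs, DU6, DU6i and DBA, again that of the percentiles. Hspa9, the mitochondrial Hsp70, ranged from 4198 in DBA to 5564 in DU6. Hspa4, an exchange factor for Hsp70, ranged from 3752 in DU6i to 5040 in DU6 with its brighter probe set. Its second probe set also put DU6i lowest, at 3594, and DU6 highest, at 4776. Hsph1 (Hsp110), a related exchange factor, gave 2750 in DU6, 3488 in DU6i, 2286 in DUKs and 4023 in DBA. Hspa14, a ribosome-associated Hsp70, gave 3248, 4728, 2767 and 2576, and its log2 ratio in DU6i vs DBA was 0.88.

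Stress-inducible Hspa1a was the 1 member whose signal stood clear of the floor in DBA and lay near or under it elsewhere. It gave 1068 in DU6, just above the floor of 1022.8, 667 in DU6i, 897 in DUKs and 2912 in DBA. DBA exceeded DU6i and DUKs at least 2.85-fold each. The neighbouring Hspa1b gene is nearly identical, so the probe set may not separate them.

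The 3 germline chaperone genes had their highest signal in DUKs. Hspa1l, an Hsp70 of spermatids, gave 74 in DU6, 108 in DU6i, 2935 in DUKs and 390 in DBA. Hspa2, the Hsp70 of meiotic spermatocytes, gave 616, 1402, 5618 and 1734, and Cct6b, the testis form of the chaperonin zeta subunit, gave 2201, 809, 6600 and 2855. For all of them DUKs was the only line well above the floor, apart from Cct6b in DBA. DU6 lay at least 2.87-fold, 2.49-fold and 2.92-fold below DUKs for Hspa1l, Hspa2 and Cct6b. The summed signal of germ cell markers was also highest in DUKs. Of the 16 genes in the germ cell list, which includes the left-out Hspa4l and Dnajb3, 14 were on the chips, and Dazl was under the floor in all lines. Against DUKs, 12 of the 13 that entered were lower in DU6 at 2-fold or more, where 6.3% of all probe sets were. The median log2 ratio of the 10 above the floor in both lines was -2.24. Against DBA, with 6.68% over all probe sets, 7 of 11 list genes were lower in DU6i (median -1.05 over 8). Their summed signal was 32387 in DU6, 29448 in DU6i, 139883 in DUKs and 70043 in DBA for 8 genes on chip A, and 28064, 20333, 144079 and 47952 for 6 genes on chip B. The part of germ cell RNA in these values was not tested.

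Hsp90aa1, the stress-responsive cytosolic Hsp90, had the same line order at its top on both chips. It gave 9577 in DU6, 8617 in DU6i, 16039 in DUKs and 11704 in DBA on chip A. It gave 9665, 11946, 19777 and 14779 on chip B, where the probe set carries the suffix for probes shared within a gene family. DUKs was highest and DBA second on each chip, with the DU6 and DU6i signals lowest in different order. The DU6 signal was 1.68-fold lower than that of DUKs on chip A (log2 -0.74) and 2.05-fold lower on chip B (log2 -1.03), while DU6i vs DBA had log2 ratios of -0.44 and -0.31. The first pair exceeds the SD of a single log2 ratio, 0.442, and the second is close to its SD of 0.347 (383 genes). Hsp90aa1 is also made in male germ cells, and the germ cell sums given above were likewise highest in DUKs and second in DBA. Their part in the Hsp90aa1 ratios was not tested.

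**Figure D2:**
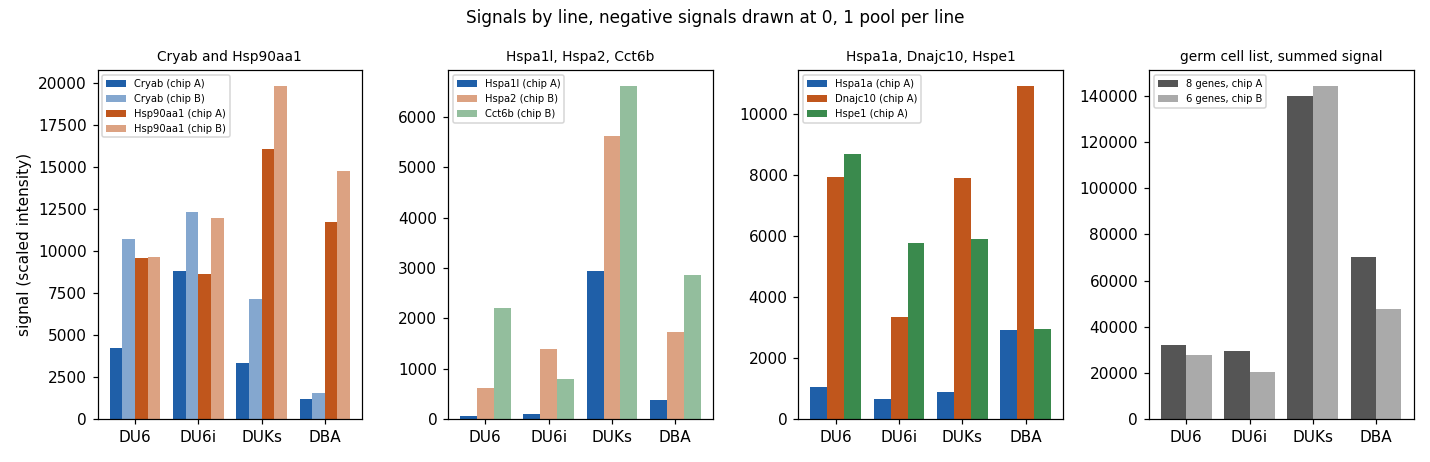
Signals (scaled intensity, linear axis from 0) of named chaperones in the 4 lines, 1 pool per line, with darker bars for chip A and lighter bars for chip B where a gene is on both, and the summed signal of the germ cell list in the last panel. Cryab is lowest in DBA, Hsp90aa1, Hspa1l, Hspa2 and Cct6b are highest in DUKs, and Hspa1a is highest in DBA, at 2912.

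Among the J-domain proteins, DU6i held the largest ratio. Dnajc10 (ERdj5), an ER disulphide reductase, gave 7932 in DU6, 3337 in DU6i, 7897 in DUKs and 10906 in DBA. DU6i stood well under the other 3 lines, which lay within 1.38-fold of one another. The ratio was 3.27-fold lower in DU6i vs DBA (log2 -1.71) and 2.38-fold higher in DU6 vs DU6i.

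Dnajc3 (P58IPK), a BiP partner in the ER with the ER stress element printed above, had 2 probe sets that differed in the pairs. Chip A gave 6450 in DU6, 4412 in DU6i, 6570 in DUKs and 6577 in DBA, and chip B gave 5179, 3417, 2524 and 7351. On chip A DU6i was the single low line. On chip B DUKs was lowest and DU6i second lowest. The ratio in DU6i vs DBA was below 0 on both, log2 -0.58 and -1.11 (2.15-fold), but in DU6 vs DUKs it was -0.03 on chip A and 1.04 (2.05-fold) on chip B.

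Dnajb9 (ERdj4), which sends misfolded ER proteins for degradation, gave 988 in DU6, 1926 in DU6i, 2453 in DUKs and 1942 in DBA with one probe set. Its other probe set, made for the same sequence entry, gave 937, 1519, 2470 and 1141. DU6 was at or under the floor with both and DUKs highest with both. DU6 was at least 2.40-fold and at least 2.42-fold lower than DUKs. Xbp1, the transcription factor of the unfolded protein response known to raise Dnajb9, gave 2704 in DU6, 5937 in DU6i, 6842 in DUKs and 4315 in DBA, and was 2.53-fold lower in DU6 vs DUKs. Both genes were lowest in DU6 and highest in DUKs, and the part of Xbp1 in the Dnajb9 values was not tested.

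Dnajb1 (Hsp40), the main stress-inducible partner of Hsp70, had no single direction in DU6 vs DUKs. The brighter of its probe sets by its mean gave 2726 in DU6, 3736 in DU6i, 7778 in DUKs and 4287 in DBA. The other gave 4903, 3196, 4106 and 5548. The first put DUKs highest and DU6 lowest, and the second put DBA highest and DU6i lowest. In DU6 vs DUKs the log2 ratios were -1.51 (2.85-fold lower) and 0.26, a difference of 1.77, the largest between 2 probe sets of 1 member gene in that pair. Both were below 0 in DU6i vs DBA, at -0.20 and -0.80.

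No remaining DnaJ member was counted at 2-fold in any of the 4 pairs. Dnaja1, a farnesylated Hsp70 partner, gave 17084 in DU6, 14815 in DU6i, 12852 in DUKs and 19404 in DBA. Dnaja2, its close relative, ranged from 4547 in DBA to 5544 in DU6i. Dnaja3, a mitochondrial member, ranged from 2005 in DU6i to 2749 in DU6. Dnajb11, an ER partner of BiP, gave 3128, 4007, 4608 and 3958 in DU6, DU6i, DUKs and DBA. Dnajc15, a protein of the mitochondrial inner membrane, ranged from 7358 in DU6i to 10089 in DU6. Dnajb6, which holds back aggregates of glutamine-rich proteins and has the run of heat shock units printed above, gave 7097, 5104, 6047 and 4958 with its brightest probe set. Its 2 dimmer probe sets gave log2 ratios of -0.55 and -0.62 in DU6 vs DUKs, against 0.23 for the brightest. Dnajb6 had DU6 highest with 1 probe set and DUKs highest with the others. Dnajc2, a ribosome-bound member, was at 983 in DU6, under the floor, and 1999 in DUKs, a bound of at least 1.96-fold that leaves the size of the difference unknown. Dnajc13, a member of the endosome membrane, gave 2541, 2386, 2609 and 3827 with one probe set and 2302, 2059, 1504 and 1796 with the other. The first put DBA highest and the second DU6, and their log2 ratios differed in sign in DU6 vs DUKs (-0.04 and 0.61) and in DU6i vs DBA (-0.68 and 0.20).

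The cytosolic chaperonin (TRiC or CCT), the ring of 8 different subunits that folds actin and tubulin, showed small ratios in 1 direction in DU6i vs DBA. All 9 probe sets that cleared the floor in both lines had a log2 ratio below 0, from -0.95 to -0.12 with a median of -0.26, and 0 of them reached 2-fold. Over all probe sets the share below 0 in that pair was 51.25%. The count was 9 of 9 also after quantile normalisation. Of the 10 measured in DU6 vs DUKs, 8 were below 0, with a median of -0.11, where 42.08% of all probe sets were below 0 and the median of all was 0.10. Other pairs also leaned below 0. DU6 vs DBA had 8 of 10 (median -0.31, 48.44% of all probe sets below 0). DUKs vs DBA had 7 of 11 (median -0.19, 51.78% of all), and DU6i vs DUKs 6 of 9 (median -0.175, 46.88% of all). The subunits are not independent, since they share the arrays, and the pairs share lines. Cct4 counts with 2 probe sets in each of these pairs, and Cct3 with 2 in those without DU6i.

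Single subunits ranged from steady to variable. Cct4 gave 10584 in DU6, 9590 in DU6i, 11102 in DUKs and 10454 in DBA on chip A, a range of 0.21 in log2. Cct8 gave 9508, 9861, 10592 and 11183, a range of 0.23. These had the smallest ranges of the 48 member probe sets above the floor in all lines. Cct2 gave 16978, 20898, 18167 and 23164. Cct5 gave 13266, 11067, 12497 and 16565, highest in DBA like Cct2. Cct7 and Tcp1, the alpha subunit, were highest in DUKs instead, Cct7 at 22493 and Tcp1 at 17067, the latter against 9431 to 10538 in the other lines. Cct6a, the ubiquitous zeta subunit, spread most among the subunit probe sets above the floor in all lines, at 7888 in DU6, 6086 in DU6i, 4887 in DUKs and 11773 in DBA. DUKs was 2.41-fold under DBA for Cct6a, the opposite of its germline copy Cct6b. Cct3, the gamma subunit, was nearer the floor, at 1532, 2306, 2799 and 3273 with its brighter probe set.

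The mitochondrial chaperonin is built from Hspd1 (Hsp60) and its lid Hspe1 (Hsp10), the neighbours with the printed heat shock units. Hspd1 gave 25569 in DU6, 26704 in DU6i, 18708 in DUKs and 24682 in DBA on chip B. Hspe1 gave 8676, 5766, 5896 and 2952 on chip A. For Hspd1 DUKs was the low line, while for Hspe1 DU6 was highest and DBA lowest. The partners lie on different chips, so a difference between the genes and one between the chips cannot be told apart. Hspe1 differed by log2 0.966 in DU6i vs DBA and 0.998 in DUKs vs DBA, both just under 2-fold, and Hspd1 by 0.11 and -0.40. Both were above 0 in DU6 vs DUKs, at 0.56 and 0.45.

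The ER lectins and disulphide isomerases gave a mixed picture. Calr (calreticulin), a calcium-binding lectin that holds new glycoproteins, gave 39749 in DU6, 21632 in DU6i, 30183 in DUKs and 26102 in DBA. DU6 was highest and DU6i lowest. The log2 ratio was 0.40 for DU6 vs DUKs, -0.27 for DU6i vs DBA, both within the spread between probe sets of a gene.

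Canx (calnexin), the membrane-bound relative of calreticulin, was measured by 3 probe sets that did not give 1 order. The brightest gave 9138 in DU6, 7578 in DU6i, 9116 in DUKs and 8116 in DBA. A second, on the same chip, gave 2090, 968, 2416 and 1083, and the third, on chip B, gave 2348, 5148, 6845 and 3972. Their log2 ratios in DU6 vs DUKs were 0.003, -0.21 and -1.54, the last 2.92-fold lower. The low chip B value in DU6 was not seen with either chip A probe set.

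Pdia3 (ERp57), the isomerase that works with both lectins, gave 14326, 10353, 12556 and 16561 in DU6, DU6i, DUKs and DBA. Pdia6, with the ER stress element, gave 2556, 2262, 4355 and 3278, so that DU6 and DU6i lay under DUKs and DBA. Pdia5, a less studied isomerase, gave 3745, 1919, 1336 and 3062. Pdia5 was 2.80-fold higher in DU6 vs DUKs, 2.29-fold lower in DUKs vs DBA, and was lowest in DUKs, unlike Pdia6, which was highest there. Pdia4 was close to the floor, between 725 and 1282. Of the 5 genes with the ER stress element, none had 1 direction in both main pairs with every probe set except Pdia6, whose log2 ratios were -0.77 and -0.54.

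Hspg2, the proteoglycan, gave 5278 in DU6, 8914 in DU6i, 7070 in DUKs and 4093 in DBA on chip A and 9592, 19485, 10354 and 13859 on chip B. DU6i was highest on both chips. It was 2.18-fold higher in DU6i vs DBA on chip A, with log2 0.49 on chip B. Hspbp1 was above the floor only in DUKs, at 1258, and in DBA, at 1851.

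Counted together, most members stayed under 2-fold in each pair. A probe set entered a pair when it cleared the floor in at least 1 of the 2 lines, and 2-fold is a rule of size, not a test. In DU6 vs DUKs, 2 of 62 member probe sets were higher at 2-fold (Pdia5 and the chip B probe set of Dnajc3), against 3.91% of all probe sets. There were 8 lower, 12.9% against 6.3% of all. The 8 were 1 probe set each of Dnajb1, Hspa1l, Hspa2, Cct6b, Canx and Hsp90aa1 and both of Dnajb9. Without Hspa1l, Hspa2 and Cct6b, a choice made after the values were seen, 5 were lower. Of the 8, 5 are bounds set by the floor (Hspa1l, Hspa2, Cct6b and both of Dnajb9), and 2 were lower with a doubled floor and 3 on log2(signal + floor). The median over 53 measured on both arrays was -0.03, with 0.10 over all probe sets.

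In DU6i vs DBA, 3 of 58 were higher (both Cryab probe sets and Hspg2), where the share of all was 4.79%. Another 3 were lower (Dnajc10, Hspa1a and the chip B probe set of Dnajc3), with 6.68% for all. The median was -0.16 over 51, with -0.02 over all probe sets, and 32 of the 51 were below 0 (62.75%, against 51.25% of all). Chip B alone gave -0.26.

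Within the sides of the series title, DU6 vs DU6i had 2 of 57 higher (Dnajc10 and a bound for Canx, background 4.8%) and 3 lower (Cryab, Canx and Hspg2, 1 probe set each, background 5.7%). DUKs vs DBA had 7 of 63 higher (both Cryab probe sets, Canx, Dnajb9, Hspa1l, Hspa2 and Cct6b), where the background was 6.01%, and 4 lower (Pdia5, Hspa1a, Dnajc3 and Cct6a), where it was 5.29%. The member medians were 0.14 and 0.10, and those of all probe sets 0.09 and -0.03. The first fell to 0.008 after quantile normalisation, and the second was -0.18 on chip B alone. The pairs share lines, so their values are not independent of each other.

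**Figure D3:**
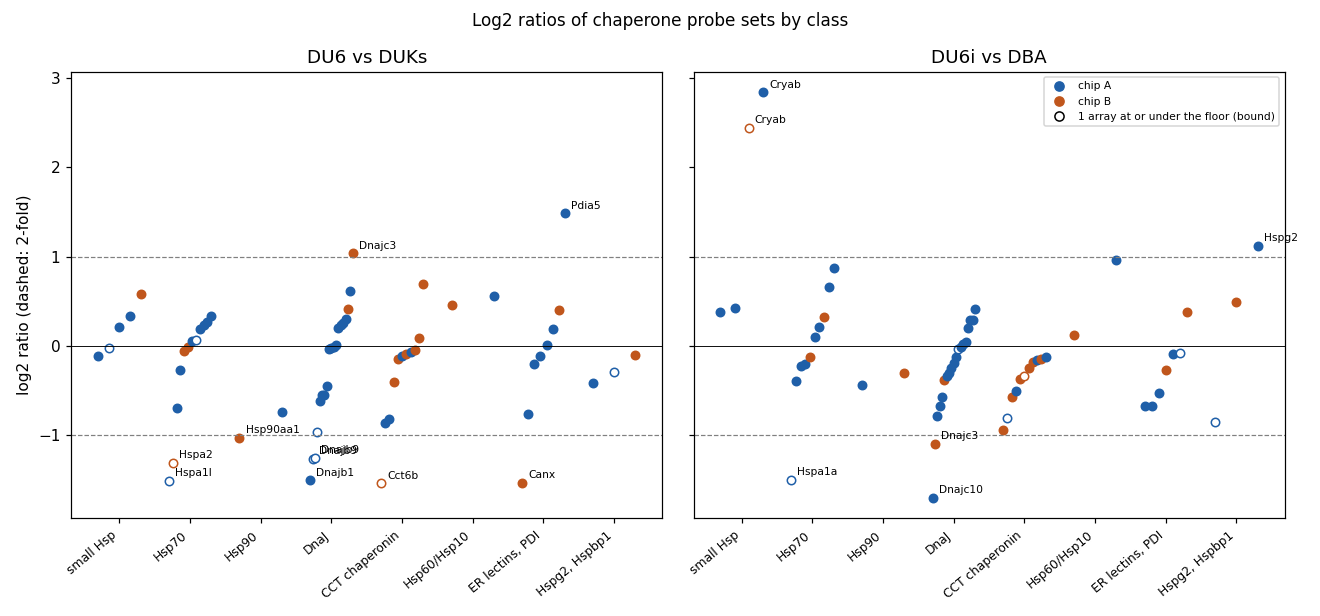
Log2 ratios of every member probe set that entered DU6 vs DUKs (left) and DU6i vs DBA (right), by class on the horizontal axis, blue for chip A and orange for chip B, with open circles where 1 array was at or under the floor and the ratio is a bound. Dashed lines mark 2-fold, beyond which 10 member probe sets lie on the left and 6 on the right, and the cytosolic chaperonin lies wholly below 0 on the right.

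Across the 4 lines the members spread about as much as other probe sets. The 48 that cleared the floor in every line had a median range of 0.62 in log2 between the lowest and highest line, against 0.71 over 3974 probe sets. A range of 2-fold or more was seen in 12 of them (25%), and in 25.34% of all. DU6i was the lowest line for 18 of the 48 (37.5%, against 28.18% of all) and DUKs for 8 (16.67%, against 29.06%).

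The 1 replicated comparison set both DU6 lines against the other two lines, as the series title does, with the line as the unit. No member passed: limma called 0 of 59 member probe sets and 0 of all 5267 tested (0%) at an adjusted p of 0.05. At an unadjusted p under 0.05 it had 252 probe sets in all (4.78%), 2 of them members, both Cryab. Cryab was higher by log2 1.59 (SE 0.58) on chip A and 1.51 (SE 0.59) on chip B in DU6 and DU6i, with both lines above both others (limma, unadjusted p 0.0325 and 0.0476, adjusted p 1 for each). Hsp90aa1 was lower in both DU6 lines on both chips, by log2 -0.59 (SE 0.30) and -0.67 (SE 0.33), without passing (limma, adjusted p 1). Dnajb1 gave -0.86 (SE 0.38) with its probe set that put DUKs highest and -0.27 (SE 0.34) with the other. DU6i derives from DU6, so the 2 lines of that side are not independent, and an exact permutation of 2 lines against 2 cannot give a p below 1 in 3.

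Partners and regulators of the members were followed in gene lists, with 1 probe set per gene. Of the Hsp70 and Hsp90 co-chaperones, 13 of 20 genes were on the chips and all entered. None reached 2-fold in DU6 vs DUKs (median log2 0.16), while 1 was lower in DU6i vs DBA, Fkbp4, the immunophilin that binds Hsp90 (median -0.26). Over all probe sets 6.68% were lower in that pair. Fkbp4 gave 17862 in DU6, 9841 in DU6i, 15845 in DUKs and 25716 in DBA, so DU6i was lowest and the ratio to DBA was 2.61-fold.

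Of the unfolded protein response and ER folding list, 17 of 27 genes were on the chips. In DU6 vs DUKs 14 entered, 1 higher and 1 lower (median 0.16), with 3.91% and 6.3% over all probe sets. Atf6, an ER stress sensor, was 2.06-fold higher, at 2964 in DU6 and 1439 in DUKs, and Xbp1, given above, was the lower one. In DU6i vs DBA 13 entered, 0 higher and 2 lower (median -0.33), with 4.79% and 6.68% over all probe sets. Creld2, an ER stress protein, gave 4754 in DU6, 1595 in DU6i, 4433 in DUKs and 6565 in DBA, 4.12-fold lower in DU6i. Manf, a secreted ER stress protein, gave 16868, 8939, 14718 and 23525, 2.63-fold lower. DU6i was lowest and DBA highest for Creld2, Manf, Fkbp4 and Dnajc10, which were lower at 2-fold in this pair. The pick by this pair favours that order. The chip B probe set of Dnajc3, also lower there, was lowest in DUKs. Of 9 mitochondrial chaperones and proteases, 5 were on the chips and 4 entered, none at 2-fold (medians 0.62 for DU6 vs DUKs, -0.23 for the other main pair). Prefoldin had 1 measured gene of 6, with log2 ratios of -0.27 in both main pairs. Among the heat shock factors and regulators 2 of 4 were on the chips, of which Hsf2 was under the floor in all lines. Hsbp1, which binds the heat shock factor, gave 9930, 11512, 14394 and 12326, with log2 ratios of -0.54 for DU6 vs DUKs, -0.10 for DU6i vs DBA.

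Marker lists of other cell types gave different sums in the pools. All 13 adipocyte genes on the chips, of 17 listed, were measured in each pair. Their median log2 ratio was -0.68 for DU6 vs DUKs, 0.91 for DU6i vs DBA, with a summed signal of 123442 in DU6, 309704 in DU6i, 202956 in DUKs and 156447 in DBA for 9 genes on chip A and 114723, 94122, 118436 and 74146 for 4 on chip B. On each chip the line order of the adipocyte sum was that of the 99th percentile given above, and the 4 genes on chip B were mixed in DU6 vs DUKs, at -0.13 for Cidec, 0.08 for Cd36, 0.70 for Slc2a4 and -0.71 for Cebpa. The macrophage list (13 of 14 genes) had medians of 0.51 and 0.75, with sums of 49224, 64311, 55353 and 39556 for 5 genes on chip A and 118133, 103089, 78380 and 65287 for 8 on chip B. For the list of the epididymis and male tract (9 of 13 genes), 7 of 7 that entered were lower in DU6i vs DBA and 2 of 5 in DU6 vs DUKs. The shares over all probe sets were 6.68% and 6.3%. Its sum was 20390, 6196, 24860 and 23783 for 2 genes on chip A and 98560, 8982, 108598 and 163972 for 7 on chip B, lowest in DU6i and, on chip B, highest in DBA. Dnajc10, Creld2, Manf and Fkbp4 had the same lowest line, but they were picked for a low ratio in DU6i vs DBA, which favours it. The part of these cell types in any chaperone ratio was not tested.

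Genes with several probe sets show how firm a single ratio is. In DU6 vs DUKs, 13 member genes gave 17 pairs of probe sets, of which 10 agreed in sign, with a median difference of 0.63 in log2 against 0.34 over all 387 genes. In DU6i vs DBA 12 pairs gave 7 of the same sign and a median of 0.38, against 0.30 over all. The median difference of the members was the larger one in both pairs, which was not tested. Cct4 was the closest, at -0.05 and -0.07 in DU6 vs DUKs, and Dnajb1 and Canx, with 1.77 and 1.55, the farthest apart. Family-shared probes, by the array's suffix, make up 16 of the 69 probe sets. Among them are those of Cryab, Hspa5, Hspa8, Cct3, Cct4 and Hspe1 and the chip B probe set of Hsp90aa1. Such values can include near-identical relatives.

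**Figure D4:**
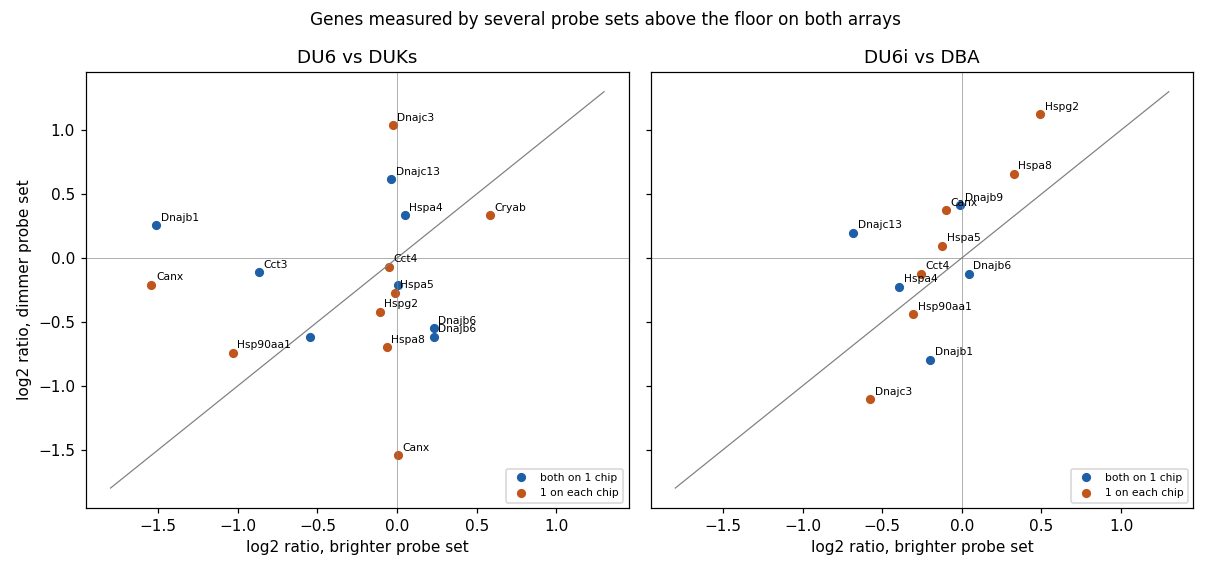
Log2 ratio of the brighter probe set (horizontal) against the dimmer one (vertical) for member genes with several probe sets that clear the floor in both lines, in DU6 vs DUKs (left) and DU6i vs DBA (right), blue where both lie on 1 chip and orange where they lie on different chips. The diagonal marks equal ratios. Dnajb1 lies 1.77 off it on the left, and Cct4 lies close to it in both.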

How the data were processed

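Pooled RNA of epididymal fat from 4 lines was measured on Affymetrix Mu11K chips A and B, 8 arrays in all. Per the labels, the authors made biotin-labelled cRNA, took intensity values from Data Mining Tool 1.2 and Microarray Suite 4.0.1 and scaled each chip using its whole set of probes. The intensity values they deposited are on a linear scale, negative ones included. Gene names came from the platform annotation, and 110 control probe sets were left out.

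Negative signals of a chip were taken by size, and their 95th percentile was its floor. Lower signals were raised to the floor ahead of the log2 step, and ratios against it are written as "at least". Lines were compared only within a chip. A pair of lines has no test, because each line has 1 pool. The sides of the title were compared with limma 3.58.1 (R 4.3.3, lmFit and eBayes) on probe sets that cleared the floor in 2 or more of the 4 lines, with a fit per chip and one Benjamini-Hochberg adjustment for both (0.05). The code was tested on simulated data. The unit is the pool of a line, so p-values measure only the spread between lines.

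The members and the lists (co-chaperones, unfolded protein response and ER folding, mitochondrial chaperones and proteases, prefoldin, heat shock factors, germ cells, muscle, adipocytes, macrophages, and epididymis and male tract) were chosen with earlier results of these data known. Named genes were the markers Cryab, Hsp90aa1 and Dnajb1, members at 2-fold or more in any of the 4 pairs, the member of highest mean signal in each class, members with several probe sets above the floor, and list genes past 2-fold in a main pair; other members are given as examples and were chosen after their values were seen. Alternatives were rescaling, quantile normalisation, other floors, log2(signal + floor), no filter, 1 probe set per gene, each chip alone and, for limma, leaving out each line. Promoter windows were searched with Python 3.11.15.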

Additional observations from a re-analysis of the deposited data

Results flagged for a closer look

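The chip B probe set of Dnajc3 moved in opposite directions in the main pairs. Its log2 ratio was 1.04 for DU6 vs DUKs, -1.11 for DU6i vs DBA, a difference of 2.14. With 1 pool per line this difference was not tested. The chip A probe set of the same gene gave -0.03 and -0.58.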

How the results depend on the processing

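Rescaling to one trimmed mean left the 13 results and every class median as they were, so it tests nothing here. The 12 results recomputed without Hspg2, an alternative added after the data were seen, kept their counts within 1.5 times and their medians within the spread. In limma 0 members passed under any alternative, leaving out each line in turn included (0 to 0). Members at an unadjusted p under 0.05 numbered 0 to 5, and without a filter limma called 4 probe sets of all, none a member. Higher and lower counts below are members at 2-fold or more, with the reported value in brackets. Quantile normalisation left 1 higher in DU6 vs DU6i (2) and a median of 0.008 (0.14). A halved floor gave 7 lower in DU6i vs DBA (3). A doubled floor gave 0 higher and 2 lower in DU6 vs DUKs (2 and 8), 1 lower in DU6i vs DBA (3), 1 higher in DU6 vs DU6i (2), and 0 higher and 1 lower in DUKs vs DBA (7 and 4). On log2(signal + floor) DU6 vs DUKs had 1 higher and 3 lower, DU6 vs DU6i 1 higher and 0 lower, and DUKs vs DBA 2 higher and 2 lower. With 1 probe set per gene, 1 was higher in DU6 vs DUKs, 1 in DU6i vs DBA (3) and 1 in DU6 vs DU6i, 1 was lower in DU6 vs DU6i (3), and 4 were higher in DUKs vs DBA. Chip A alone gave 1 higher and 4 lower in DU6 vs DUKs, 1 lower in DU6 vs DU6i, and 4 higher and 2 lower in DUKs vs DBA. Chip B alone gave 1 higher and 4 lower in DU6 vs DUKs, 1 higher and 1 lower in DU6i vs DBA, 0 higher in DU6 vs DU6i, and 3 higher and 2 lower in DUKs vs DBA. Its medians were -0.26 in DU6i vs DBA (-0.16) and -0.18 in DUKs vs DBA, the opposite sign of the reported 0.10. Without the floor filter the medians were -0.10 in DU6i vs DBA, 0.00 in DU6 vs DU6i and 0.029 in DUKs vs DBA. Without Hspa1l, Hspa2 and Cct6b, chosen after the data were seen, DU6 vs DUKs had 5 lower (8) and DUKs vs DBA 4 higher (7). Fewer probe sets enter with 1 chip, 1 probe set per gene or a higher floor; otherwise the cause was not tested. Of the 32 single ratios at 2-fold, 22 fell under it with a doubled floor, 19 on log2(signal + floor), 2 after quantile normalisation and 0 with a halved floor, and none reversed. No paired analysis was possible because each line has 1 pool. Signal over background limits what is shown: ratios of members near the floor are bounds. The SD of a single ratio, 0.35 to 0.48 in log2, comes from probe sets of the same gene on the same pools. It holds no spread between pools, so no smallest detectable difference can be given.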
